A study of Mus musculus with 20 samples.

Results

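C/D box small nucleolar RNAs (snoRNAs) were read here through their fragments of 18 to 45 nt in 20 small-RNA libraries from mouse bone-marrow cultures. Members were the genes whose GENCODE symbol starts with Snord and whose fragments, matching the transcript wholly and exactly and matching no miRNA hairpin, summed to at least 50 reads over all libraries. This gave 76 of the 97 annotated Snord symbols, out of 1334 small and structural RNA genes that reached 50 reads. Snord14a (109 reads) lay just inside the threshold, and Snord1a (42 reads) was the only detected gene just outside. The members held 1831672 reads in 6230 distinct sequences, and 67 of them had at least 500 reads.

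Marrow of mice aged 8 to 12 weeks was cultured with GM-CSF (hybridoma supernatant) to give dendritic cells, or with M-CSF to give macrophages. The mice were C57BL/6 wild type, or the B6.Cg-Mir155tm1.1Rsky/J strain, a germline knockout of the microRNA miR-155. Cultures had no stimulus, LPS, oxLDL, eLDL or LDL, and each of the 20 combinations of culture, genotype and stimulus had 1 library. LPS is bacterial lipopolysaccharide, LDL is low-density lipoprotein and oxLDL its oxidised form. The protocol gives 200 ng/ml LPS overnight at day 8 to 9 for dendritic cells, while for lipoprotein doses and the macrophage schedule the labels used here give no value. No condition was repeated. The tests of level therefore take as spread the departures of wild-type and knockout libraries from parallel responses, and their p-values measure that spread only.

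C/D box snoRNAs are nucleolar RNAs that guide the methylation of the ribose 2′-O position in ribosomal and spliceosomal RNA. Each carries a box C near its 5′ end and a box D near its 3′ end, and often inner copies called C′ and D′. The bases just upstream of box D or D′ pair with the target, and fibrillarin, held in a complex with Nop56, Nop58 and Snu13, places the methyl group. A few members act in the cutting of the ribosomal precursor RNA instead. In mammals most are released from introns of genes for ribosomal proteins, translation factors or noncoding host RNAs. Short stable pieces of snoRNAs are known from many small-RNA libraries. Whether a read comes from a stable fragment or from breakdown of the full-length snoRNA is not recorded in such libraries.

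The fragments of the 12 members with the most reads are shown because 86.4% of all C/D reads came from these genes. Each line is the most frequent fragment of the gene, 5′ to 3′, with the CTGA nearest its 3′ end (the letters of box D or D′, written with T) in capitals.
Snord93: ggccaaggatgagaactctaacCTGAc
Snord57: tggaaaggatgaacgaacttggcCTGAcc
Snord99: cggatatgggaCTGAgacc
Snord55: gcggatgatgacacctgggta
Snord95: agaggctgtttCTGAgctg
Snord45c: agaattactCTGAgacct
Snord110: ctgacgactccatgtgtCTGAgcaa
Snord85: ggtcgatgatgagagctttgttCTGAgc
Snord49a: tgctgtgatgagatgact
Snord42a: tgcaaatgatggaaaactcaatgtt
Snord104: ccgggtgatgcgaatcgtaatCTGAgc
Snord83b: tgttctgtgatgaggctc

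In 8 of these 12 lines the fragment closes within a few bases after CTGA. Snord55, Snord49a, Snord42a and Snord83b are the exceptions: their fragments begin at the snoRNA's 5′ end and hold no CTGA.

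Snord93 gave 799422 reads, 43.6% of all C/D reads. It lies at chr5:23852210-23852280 on the plus strand (GRCm38), in an intron of the noncoding RNA 2700038G22Rik. Its leading fragment spans bases 2 to 28 of the 71-base transcript and made up 56.1% of its reads. Nearly all Snord93 reads, 779490, also match a near-identical gene at chr5:23710991-23711061 on the minus strand, which GENCODE lists with the symbol Mir3096 and the type snoRNA. The symbol is a microRNA name, and the locus was kept because neither GENCODE nor the RefSeq miRNA table used here holds it as a miRNA hairpin. Under a catalogue that does, the shared reads would leave the C/D count. The GENCODE transcripts of both genes are shown whole, with the only differing base in capitals.
Snord93: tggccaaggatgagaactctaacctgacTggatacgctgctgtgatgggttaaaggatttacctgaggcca
Mir3096: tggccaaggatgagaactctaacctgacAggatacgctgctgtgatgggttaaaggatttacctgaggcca

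Counted from 1 at the 5′ end, this difference is T29A, just beyond the end of the leading fragment. Among reads long enough to tell them apart, 19932 belonged to Snord93 alone and 996 to Mir3096 alone. Values for Snord93 therefore cover both genes for most reads, and the main summed values are also given without Snord93. Snord95 has the same limit, with 73159 of its 73788 reads shared with Gm25296 at chr11:48800866-48800932. Nearly all reads of Snord1c and all reads of Snord50a and Snord50b also match GENCODE transcripts outside their loci. Only 2.97% of C/D reads lay in 2 or more Snord genes.

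After Snord93 came Snord57 with 232191 reads (chr2:130278016-130278087, plus strand, an intron of Nop56, itself a core protein of the C/D particle). Snord99 had 187612 reads (chr4:132310691-132310764, plus strand, in the noncoding host Snhg12, where it overlaps an exon of an annotated transcript). Snord55 had 76406 reads, and Snord95 had 73788 (chr11:48803139-48803206, plus strand, an intron of the ribosome-associated Rack1). The 5 leading genes held 74.8% of the C/D reads. By annotation 68 members lay in an intron of a host gene, 5 overlapped an exon of a host transcript and 3 had no host (Snord104, Snord118 and Snord13). Reads were not divided by transcript length, which ran from 64 to 238 bases, so these figures are shares of reads and not ranks of snoRNA abundance.

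Of the 20 annotated symbols with no read, 19 belong to the imprinted Snrpn-Ube3a region (Snord64, Snord107 and the copies of Snord116), which is known for its expression in brain. A count of 0 in 299949470 reads allows up to 0.0100 reads per 1000000 reads of the file (RPM, the unit of all levels here) over all libraries, covering counting error only.

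Libraries held 10254997 to 22796027 reads, of which 53667 to 148021 were C/D fragments. Reads on the opposite strand of Snord transcripts numbered 0 to 19 per library. The targeted Mir155 hairpin had 70.4 to 6113 RPM in wild-type dendritic cells and 0.167 to 0.461 in knockout ones, and 2866 to 21300 in wild-type macrophages and 1.90 to 2.90 in knockout ones. Myeloid miRNA hairpins (2 of 2 found) were high in every library, at 11270 to 16510 RPM. Erythroid hairpins (3 of 3) were higher in dendritic cells (399 to 592) than in macrophages (105 to 176.5), whereas the lymphoid Mir150 was higher in macrophages (34.03 to 85.96) than in dendritic cells (3.34 to 13.04). Epithelial hairpins (5 of 5) summed to 79.5 to 135.5 and stromal ones (4 of 4) to 0.342 to 146.7, while Mir122 of liver stayed at 2.22 or below and the endothelial Mir126 was not matched by that symbol. The part of these other cells in the results was not tested. The LPS-treated knockout macrophage library stood apart in the C/D fragments: it was the lowest macrophage library for 14 of the 30 members that were higher in macrophages, and results that rest on it are also given without it.

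Summed C/D fragments lay between 4069 and 7260 RPM in dendritic cells (median 5234) and between 4665 and 9657 in macrophages (median 6722). The groups overlap, but in 9 of 10 pairs matched on genotype and stimulus the macrophage library was higher, and the ratio of the group means was 1.24. Without Snord93 the macrophage library was higher in 10 of 10 pairs, with a ratio of 1.39 (means 3951 and 2845 RPM). Relative to miRNA reads instead of all file reads the ratio was 1.47. Among macrophages the knockout library was above its wild-type partner for all 5 stimulus states, and among dendritic cells in 3 of 5. Without Snord93 the knockout macrophage library was higher for 4 of 5. With LPS the wild-type and knockout dendritic cells had 4208 and 5046 against 4355 and 6278 unstimulated, lower in both. Since fewer molecules per cell and a smaller share of cells that hold them cannot be told apart in bulk samples, and RPM is a share of the library, these are relative levels.

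**Figure D1:**
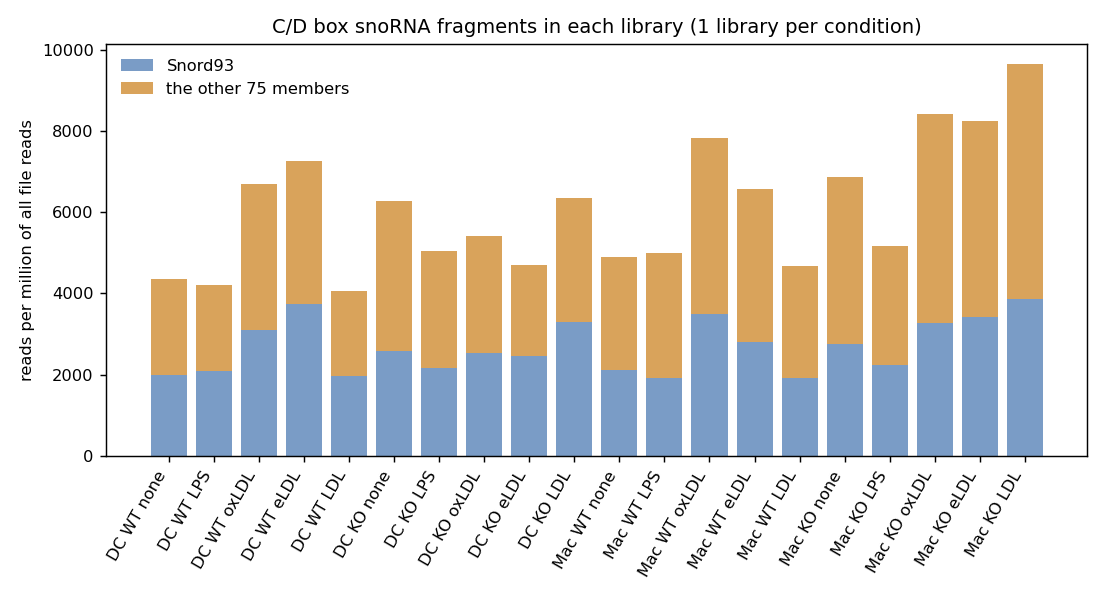
Summed C/D box snoRNA fragments in RPM (y axis) for each of the 20 libraries (x axis, 1 bar per library, from a zero baseline), split into Snord93 and the other 75 members. Bars run from 4069 (wild-type dendritic cells with LDL) to 9657 (knockout macrophages with LDL), and Snord93 is a large part of every bar.

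Fragment lengths had a main peak and a shoulder. Over all members 27.6% of reads were 27 nt, 17.1% were 28 nt and 10.7% were 29 nt, and no single length from 30 nt up reached 1%. Without Snord93 the peak moved to 29 nt (18.5%), and 18 nt fragments made up 10.0%. Since the files begin at 18 nt, shorter fragments were not seen. Snord93 reads averaged 26.9 nt and Snord57 reads 28.4 nt, against 21.3 nt for Snord99 and 19.7 nt for Snord95. Snord57 thus is most of the peak that remains without Snord93: 74.3% of its reads were the single 29-base fragment marked here in capitals within the 72-base snoRNA.
Snord57: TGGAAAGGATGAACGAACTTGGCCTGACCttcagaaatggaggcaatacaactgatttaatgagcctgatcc

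The ends of the fragments were then placed relative to the boxes. A fragment was called a 5′ fragment when it began within 10 nt of the first base of the transcript and a 3′ fragment when it ended within 10 nt of the last. An inner CTGA is any that is not the last of its transcript, and whether it is a D′ box was not tested. Among 5′ fragments, 81.03% of reads held an inner CTGA, and of these 72.8% ended 1 base and 25.1% ended 2 bases after it. The 1-base class was almost wholly Snord93. Without it, 53.8% of 5′ reads held an inner CTGA and 95.8% of those ended exactly 2 bases after it. Among 3′ fragments, 99.1% held the last CTGA (box D), and 33.8% of those ended 2 bases, 39.1% ended 4 bases and 20.2% ended 5 bases beyond it. Since transcripts closed a median of 5 bases after their last CTGA, the later ends lie at or near the annotated end of the snoRNA. Box D lies so close to that end that a 3′ fragment as defined here nearly always holds it, so the 3′ values are a description only.

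By gene, 56 of 76 dominant fragments held a CTGA, 43 the last one and 13 an inner one. In 34 of 76 genes (44.7%) the dominant fragment ended exactly 2 bases after CTGA, and in 54 (71.1%) it ended 1 to 5 bases after. Over all windows of the same length in the same transcripts, read on the sense strand, 45.1% held CTGA, 3.54% ended 2 bases after it and 16.5% ended 1 to 5 bases after it. The windows lie anywhere in the transcript, whereas a 3′ fragment by definition ends near the last CTGA. For 3′ fragments the difference from the windows is therefore largely fixed. Of the 34 genes, 23 ended after the last CTGA and 11 after an inner CTGA. No window value was computed for 5′ fragments alone. All CTGA counts describe letters in the transcripts and can overlap with box C, since its hexamer TGATGA may begin inside a box D word. That hexamer was present in 75.5% of Snord transcripts and in 22.6% of other snoRNA transcripts, while CTGA was present in 100% and 78.1%. Among the 30 genes led by a 5′ fragment, 12 held an inner CTGA, and 11 of these ended 2 bases after it. All 41 genes led by a 3′ fragment held the last CTGA, which the definition nearly fixes. The share of CTGA-holding reads that ended 1 to 5 bases after it was 96.4% to 97.8% in every one of the 20 libraries. Narrower values varied more: the share ending exactly 2 bases after it ran from 21.9% to 35.2%. Reads that held a CTGA at all made up 75.9% to 93.9% of C/D reads.

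**Figure D2:**
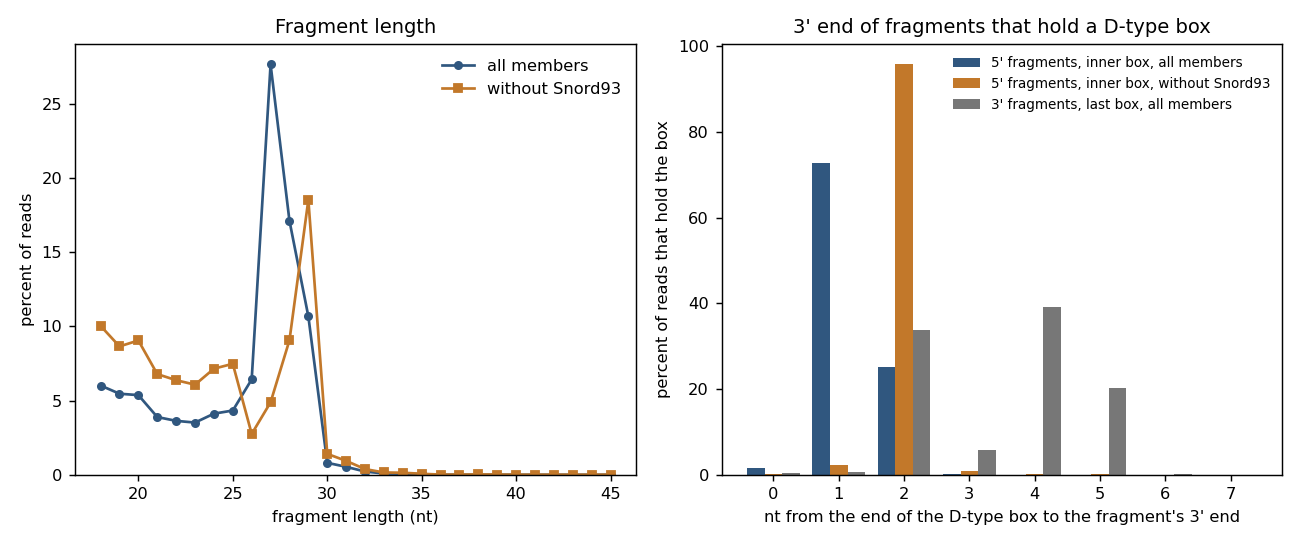
Left, percent of C/D reads (y axis) at each fragment length in nt (x axis), for all members and without Snord93. Right, percent of reads holding a CTGA (labelled D-type box, y axis) by the distance in nt from it to the fragment's 3′ end (x axis). The left peak stands at 27 nt with Snord93 and at 29 nt without it, and the right bars gather at 1 and 2 nt for 5′ fragments and at 2, 4 and 5 nt for 3′ fragments.

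Several members with many reads were recovered almost wholly from 1 end. Snord93 (100.0% of reads), Snord57 (99.4%) and Snord55 (99.4%) were recovered from the 5′ end. Snord99 (99.8%), Snord95 (99.9%), Snord110 (98.8%) and Snord104 (98.0%) were recovered from the 3′ end. In all, 6 members had over 90% of their reads at the 5′ end and 18 had over 90% at the 3′ end, while 39 had at least 10% at both. Neighbours in 1 host gene could take opposite ends, since Snord57 and Snord110 both lie in Nop56. A further 6 members had most of their reads from inside the snoRNA, among them Snord118, needed for maturation of the large-subunit ribosomal RNAs (98.3% internal), and Snord68, hosted by Rpl13 (98.3%).

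**Figure D3:**
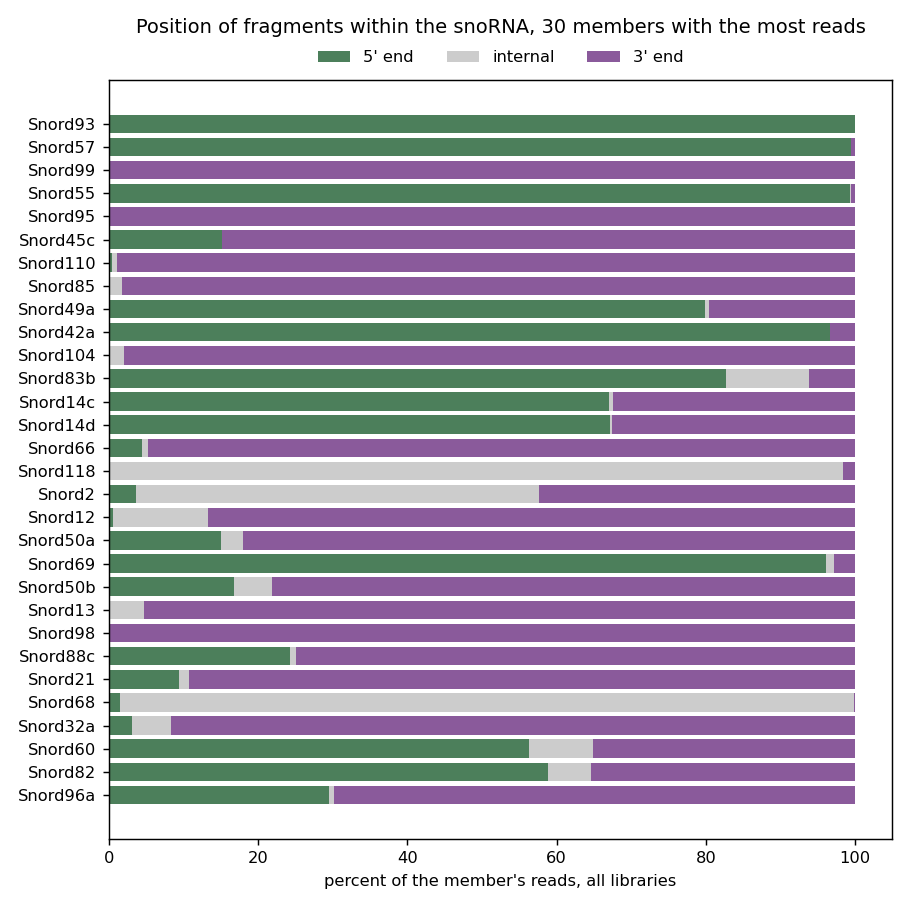
Percent of each member's reads (x axis) that came from the 5′ end, the interior or the 3′ end of the snoRNA, over all 20 libraries, for the 30 members with the most reads (y axis). The 5 uppermost bars are nearly of 1 colour, Snord14c, Snord14d, Snord60 and Snord82 show both ends, and Snord118, Snord2 and Snord68 are mostly internal.

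Macrophages against dendritic cells was the comparison with the most called members. It also had the most libraries, 10 against 10, where genotype had 5 pairs and LPS 2 pairs in a cell type. Counts of calls are therefore not measures of the size of change between these comparisons. Fragments of 30 of 76 members were higher in macrophages and those of 1 were lower (edgeR, adjusted p under 0.05). That is 39.5% of members higher, where 25.2% of the 1334 features tested were higher, and 1.32% lower against 21.6% of features (46.8% of features in either direction). Other snoRNA genes (170, without a Snord symbol) had 35.9% higher and 7.06% lower, so their higher calls also outnumbered their lower ones. The median log2 change was 0.38 over the members and 0.12 over all features. Taken as a share of C/D reads, 18 members were higher and 4 lower, and each of the 18 was one of the 30. With TMM scaling, which put the median of all features at 0.27, it was 40 higher and 1 lower.

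Snord88c (intron of 2410002F23Rik) had the largest change among members with at least 500 reads. It ran from 2.20 to 8.67 RPM in dendritic cells (median 3.83) and from 10.3 to 62.1 in macrophages (median 30.6). No dendritic cell library reached the lowest macrophage library. Its log2 change was 2.95 ± 0.30 (SE; adjusted p = 1.2e-05, edgeR), or 7.73-fold. Its relative Snord88a in the same host rose by 2.03 ± 0.39, from a median of 3.04 to 14.7 RPM.

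Snord55 carried the most reads among the changed members. Dendritic cell libraries lay between 37.9 and 198 RPM (median 66.7) and macrophage libraries between 108 and 683 (median 353). The ranges touch only through the unstimulated knockout and wild-type dendritic cells, at 198 and 121, and the LPS-treated knockout macrophages, at 108. The log2 change was 2.41 ± 0.27 (SE; adjusted p = 2.4e-05, edgeR), and 2.04 to 2.59 when any 1 library was left out.

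Further members rose by 1 or more on the log2 scale. Snord49a went from a median of 41.5 to 129 RPM (log2 change 1.73 ± 0.27) and Snord45c from 56.1 to 171 (1.54 ± 0.23). Snord92, in Wdr43, rose by 1.55 ± 0.27 and Snord61, in Rbmx, by 1.43 ± 0.21. Snord80, from the growth-arrest RNA Gas5, rose by 1.15 ± 0.18. Snord60, known for a role in cholesterol trafficking inside cells, went from a median of 9.63 to 19.0 RPM (1.13 ± 0.12). All of these were called in every fit that left out 1 library. Of the 30 higher members 14 were higher in 10 of 10 matched pairs and 24 were called in all 20 such fits. Only Snord88c, Snord50a and Snord50b had no overlap between the 10 macrophage and 10 dendritic cell libraries. All reads of Snord50a and Snord50b also match GENCODE transcripts outside their loci, so their levels are not specific to these genes.

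Snord96a was the only member lower in macrophages, with 12.0 to 26.8 RPM in dendritic cells (median 18.4) and 8.14 to 18.2 in macrophages (median 14.2). Its log2 change was -0.43 ± 0.10 (SE; adjusted p = 0.0055, edgeR), but 0.14 when only fragments of 27 to 45 nt were counted. Snord95 in the same host gene, Rack1, had 0.23 ± 0.11 (adjusted p = 0.096, edgeR) and did not pass. Several of the most abundant genes did not pass: Snord93 had 0.08 ± 0.13, Snord57 had 0.52 ± 0.25, Snord99 had -0.29 ± 0.24 and Snord110 had 0.00 ± 0.08. The same held for Snord104 (0.11 ± 0.21) and Snord42a (-0.11 ± 0.06). Snord85 passed at 0.54 ± 0.20 but in only 7 of the 20 fits without 1 library, and Snord83b, in Rpl3, at 0.28 ± 0.09 in 13 of 20.

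**Figure D4:**
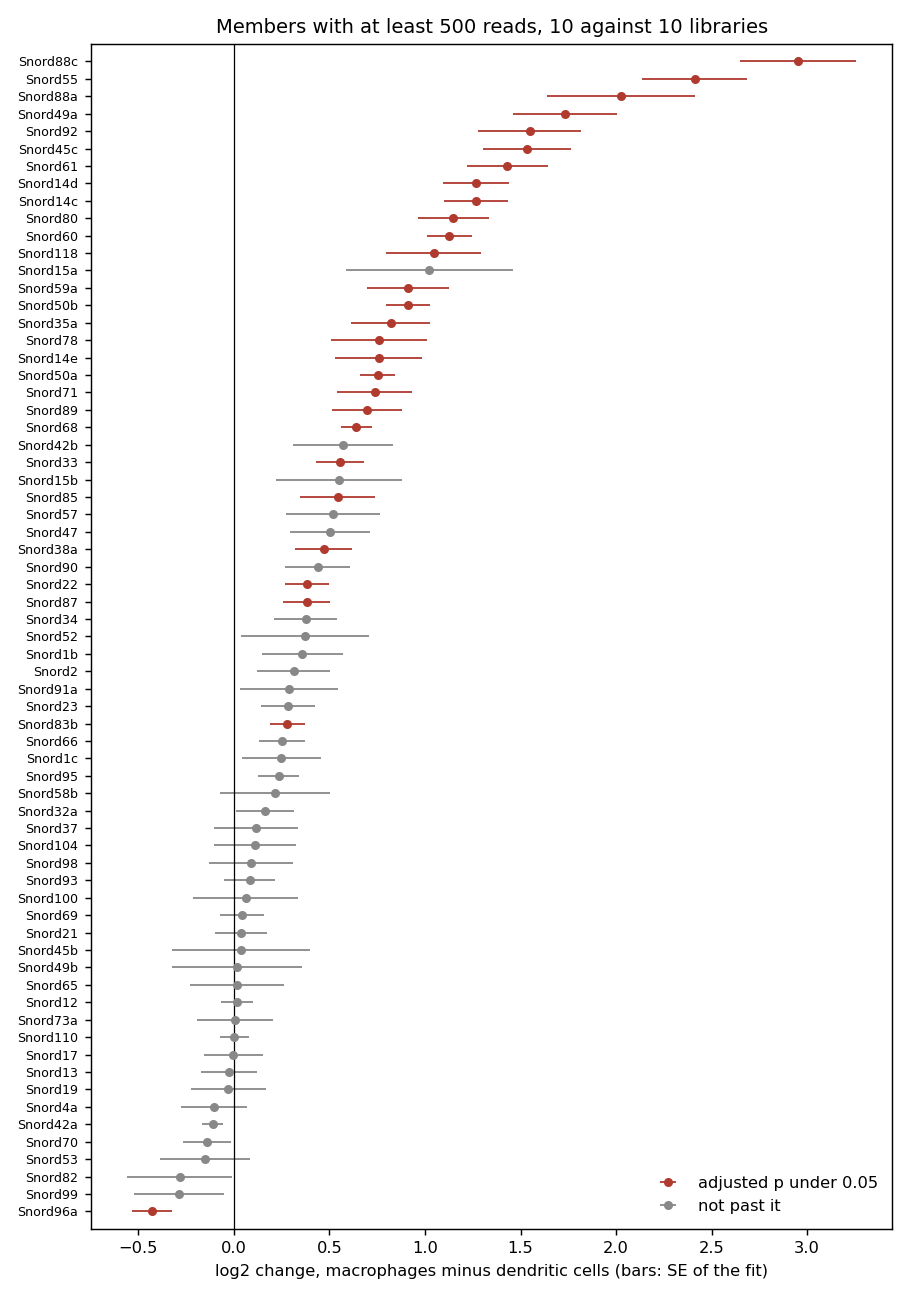
Log2 change of fragment level, macrophages minus dendritic cells (x axis; points are the edgeR estimates over 10 against 10 libraries, bars are SE), for the 67 members with at least 500 reads (y axis). Called members are drawn in red and lie from -0.43 (Snord96a) to 2.95 (Snord88c), almost all to the right of zero.

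Members that act in ribosomal RNA processing were mostly higher in macrophages, 6 of 7 passing the test with a list median of 1.05, where 25.2% of all features and 39.5% of all members were higher. Snord14c and Snord14d, needed for the small-subunit RNA and hosted by the chaperone gene Hspa8, rose by 1.27 ± 0.17 each, but their near-identical reads were divided between them, so these 2 of the 6 are 1 observation. Snord14e of the same host rose by 0.76 ± 0.23 and Snord118 by 1.05 ± 0.25. Snord22, in Snhg1, rose by 0.38 ± 0.12, and Snord14a by 1.38 on 109 reads, called in 11 of the 20 fits without 1 library. Snord13, which acts with the small-subunit precursor, had -0.03 ± 0.15 and did not pass.

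The Rpl13a snoRNAs, known from the cellular response to excess lipid and oxidative stress, split. Snord33 (0.55 ± 0.13) and Snord35a (0.82 ± 0.21) were higher in macrophages, whereas Snord32a (0.16 ± 0.15) and Snord34 (0.37 ± 0.17) did not pass. Reads of Snord33 that match the hairpin Mir5121, 328 in all, are not in its count. Of the Gas5 snoRNAs 2 of 3 were higher. The 3 members that guide methylation of U6 RNA (Snord7, Snord8 and Snord67) did not pass in this comparison. By host class, 9 of 21 members in ribosomal protein genes and 6 of 8 in Gas5 or Snhg-named hosts were higher. In other hosts 14 of 44 were higher and 1 was lower, and with no host 1 of 3 was higher. The other hosts include further noncoding RNAs, such as 2700038G22Rik and Zfas1. These counts stand beside the 39.5% of all members and 25.2% of all features that were higher.

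Cell types also differed in which end of a snoRNA was recovered. For each gene with at least 500 reads the share of reads with their midpoint on the 5′ side of the transcript's middle was compared over the 10 matched pairs (exact two-sided sign-flip permutation test, smallest possible p 0.0019531). This test treats the pairs, which differ in genotype and stimulus, as independent, and its p-values measure the spread of their differences only. Of 67 members 20 were called (29.9%), where 44.4% of the 647 features tested were called. In 16 the 5′ side gained in macrophages and in 4 the 3′ side gained (Snord78, Snord88c, Snord92 and Snord45c).

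Snord14c shows the shift most plainly; its 5′ fragment is in capitals.
Snord14c: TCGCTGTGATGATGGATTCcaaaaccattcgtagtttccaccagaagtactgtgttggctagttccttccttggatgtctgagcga
Its 5′-side share was 23.6% to 63.2% in dendritic cells (median 40.3%) and 37.3% to 85.8% in macrophages (median 73.7%), higher in 10 of 10 pairs (exact permutation p = 0.0019531, adjusted p = 0.0075). The 37.3% is the LPS-treated knockout macrophage library, and the other 9 macrophage libraries all lay above the highest dendritic cell library. In RPM its 5′ fragments had a mean of 17.0 in dendritic cells and 76.4 in macrophages, while its 3′ fragments had 24.1 and 24.2. So for this gene the higher total in macrophages lay in the 5′ fragments.

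Snord49a had the same form. Its share on the 5′ side had a median of 53.5% in dendritic cells (34.5% to 78.9%) and 86.1% in macrophages (62.9% to 92.9%), higher in 10 of 10 pairs. Its 5′ fragments had means of 25.7 and 129 RPM and its 3′ fragments 18.6 and 21.8. Snord82, in the nucleolin gene Ncl, came to a similar shift another way. The share rose from a median of 53.9% to 83.9%, again in 10 of 10 pairs, with 5′ fragments at means of 7.74 and 10.8 RPM and 3′ fragments at 9.20 and 2.57. Its 3′ fragments were higher in macrophages in 0 of 10 pairs, and its total did not pass the test (-0.28 ± 0.27).

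Snord22 rose from a median of 0% to 8.6% in 10 of 10 pairs, Snord91a from 9.9% to 28.7% in 9 of 10 and Snord45b from 13.6% to 45.9% in 9 of 10. Snord92 moved the other way, from 12.2% to 4.8%, lower in 9 of 10 pairs. For Snord88c the pooled share fell from 42.9% to 23.2%, and both kinds of fragment were higher in macrophages in 10 of 10 pairs, with means of 1.95 and 7.98 for the 5′ and of 2.56 and 27.6 RPM for the 3′ fragments. Over all C/D reads 5′ fragments made up means of 66.7% in dendritic cells and 69.7% in macrophages. Without Snord93 the means were 36.6% and 48.3%, higher in macrophages in 10 of 10 pairs. These pooled shares also depend on which genes give the reads. Snord57 and Snord55, nearly all 5′ fragments and not called for end share, had means of 625 and 80.5 RPM in dendritic cells. In macrophages they had 908 and 400. The 3′-recovered Snord99 and Snord95 had 692 and 225 in dendritic cells and 557 and 268 in macrophages. The part of gene levels in the pooled difference was not tested.

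**Figure D5:**
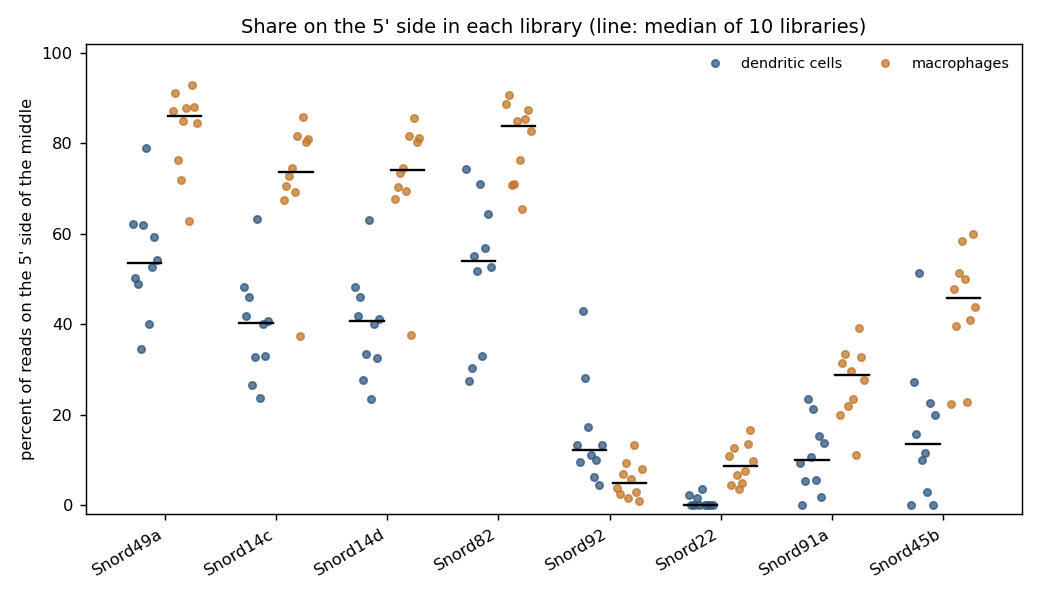
Percent of a gene's reads on the 5′ side of the snoRNA's middle (y axis), 1 point per library and a line at the median of 10, for the 8 members with the largest called shift (x axis), in dendritic cells and macrophages. Macrophage points stand higher for 7 of the genes and lower for Snord92, with overlap between cell types in most of them. Snord14c and Snord14d, whose reads were divided between them, are drawn separately.

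Knockout against wild type gave no called member in dendritic cells (edgeR; 1 member at unadjusted p under 0.05, and 0 called by DESeq2), where 0.75% of all features were called (0.525% higher and 0.225% lower). In macrophages 5 members were higher in the knockout and none lower. That is 6.58% of members, where 3.52% of all features were higher and 2.02% lower (5.55% in all), and 6.47% of other snoRNA genes were higher. The median log2 change was 0.39 over the members and 0.19 over all features. As a share of C/D reads 0 of the 5 were called, beside a higher summed C/D level in the knockout macrophages in 5 of 5 pairs. Stromal miRNA hairpins also moved with genotype, at 13.1 to 146.7 RPM in wild-type and 0.342 to 11.4 in knockout macrophages. In dendritic cells, where no member was called, they had 27.7 to 125.1 in wild-type and 5.04 to 20.7 in knockout libraries. Epithelial hairpins had 118.4 to 135.5 in wild-type and 79.5 to 92.9 in knockout dendritic cells, and overlapped between genotypes in macrophages. The part of these hairpins in the result was not tested.

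Snord42a, from the Rpl23a gene, had 66.9, 70.0, 93.2, 75.9 and 70.8 RPM in wild-type macrophages that were unstimulated or given LPS, oxLDL, eLDL and LDL. In the same order the knockout libraries had 101, 111, 146, 109 and 120. The lowest knockout library was above the highest wild-type library, and the log2 change was 0.64 ± 0.08 (SE; adjusted p = 0.00053, edgeR). In dendritic cells its change was 0.16 ± 0.08 (adjusted p = 0.59, edgeR).

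Snord68, in Rpl13, had 11.8, 19.8, 19.99, 19.9 and 20.6 RPM in wild-type macrophages. Their knockout counterparts had 20.7, 25.1, 31.1, 35.8 and 37.8. Each knockout library was above all wild-type ones, the lowest only just, and the log2 change was 0.70 ± 0.12. Snord90 rose by 1.35 ± 0.23, with 0.89, 0.53, 3.08, 2.30 and 1.62 against 2.62, 2.47, 4.57, 4.85 and 5.15. Here the groups overlap, and the gene has only 714 reads in all. Snord66 (0.67 ± 0.17) and Snord110 (0.49 ± 0.11) passed too, but in 6 and 12 of the 20 fits without 1 library. Leaving out either LPS-treated macrophage library raised the count to 11 members. The genotype effect differed between cell types for Snord42a alone (0.48 ± 0.11; adjusted p = 0.049, edgeR), where 2.77% of features differed (1.65% higher and 1.12% lower in macrophages), and this call was lost in all 20 fits that left out 1 library. The share of reads on the 5′ side gave no call between genotypes (0 of 67 members with 6 at unadjusted p under 0.05, against 0.0% of features, exact sign-flip permutation test over 10 pairs).

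LPS in dendritic cells lowered 9 members and raised none (edgeR). That is 11.8% of members lower, where 6.82% of all features were lower and 2.02% higher (8.85% in all), and 7.06% of other snoRNA genes were lower. The median of all features was itself -0.41 in this comparison, and that of the members was -0.53. With TMM scaling 2 members were called lower, with DESeq2 3 lower and 1 higher, and as a share of C/D reads 0, so most of these calls depend on the scaling. DESeq2's size factors put the median of all features at 0.02. They also rest on 4 libraries: without either unstimulated library, or without the wild-type LPS library, 0 members were called, and without the knockout LPS library 1.

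Snord45c, in Rabggtb, had 76.5 and 147 RPM in unstimulated wild-type and knockout dendritic cells and 18.9 and 28.4 with LPS. Its log2 change was -2.23 ± 0.53 (SE; adjusted p = 0.027, edgeR), and it was called under TMM and by DESeq2 too. Snord83b, in Rpl3, had 80.4 and 108 unstimulated and 42.8 and 48.3 with LPS (-1.04 ± 0.21). Snord1b went from 5.86 and 5.05 to 1.8 and 0.93 and Snord1c from 4.69 and 3.41 to 0.94 and 0.99, and these relatives share part of their reads. Snord33 fell by 1.24 on the log2 scale, Snord22 by 1.16, Snord60 by 1.06, Snord96a by 0.91 and Snord12, in Zfas1, by 0.70. In 8 of the 9, both LPS libraries lay below all 8 other dendritic cell libraries.

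Fragment length in dendritic cells also differed from unstimulated, with lipoproteins as well as with LPS, and lipoproteins gave 0 called members there. Fragments of 18 to 22 nt made up 28.6% and 30.03% of C/D reads in the unstimulated dendritic cells, 22.4% and 23% with LPS, and 12.8% to 25.5% with lipoproteins, so all 8 stimulated libraries lay below both unstimulated ones. Counting only fragments of 18 to 26 nt, 13 members were lower with LPS, and counting only 27 to 45 nt, 0 were. Snord45c had a log2 change of 0.36 in the longer fragments, opposite to its total, and Snord22, Snord33 and Snord60 turned to 0.68, 0.11 and 0.66. None of these was called higher or lower in the longer fragments. Reads of these genes averaged from 20.9 nt (Snord22) to 23.6 nt (Snord60), so most are shorter, and a rise of the longer ones is not shown. In macrophages the share of 18 to 22 nt was 28.7% and 28.8% unstimulated and 33.7% and 22.7% with LPS, without a common direction.

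LPS in macrophages gave 0 called members (edgeR; 5 at unadjusted p under 0.05, 0 called by DESeq2), where 3.67% of features were called (2.77% higher and 0.9% lower). Snord45c had 134 and 175 RPM in wild-type macrophages without and with LPS but 175 and 49.8 in knockout ones. Without the wild-type LPS library 5 members were called. The LPS effect differed between cell types for 0 members (edgeR; 10 at unadjusted p under 0.05, 0 by DESeq2), where 1.57% of features differed (1.2% higher and 0.375% lower in macrophages), and for 6 members without the LPS-treated knockout macrophages.

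Lipoproteins, taken as the mean of oxLDL, eLDL and LDL against no stimulus, gave 0 called members in dendritic cells (edgeR; 11 at unadjusted p under 0.05, 0 by DESeq2), where 0.0% of features were called. In macrophages 2 were higher and 0 lower, where 2.55% of features were higher and 0.675% lower (3.22% in all). Snord61 had 0.74 and 1.59 RPM in unstimulated wild-type and knockout macrophages and 2.62 to 5.67 with a lipoprotein (log2 change 1.79 ± 0.40; adjusted p = 0.037, edgeR), on 717 reads in all. LPS-treated macrophages had 3.33 and 3.03, so the unstimulated libraries were the low ones. Snord68 had 11.8 and 20.7 unstimulated and 19.9 to 37.8 with a lipoprotein (0.76 ± 0.16). Neither was called with TMM over all features or as a share of C/D reads, and Snord61 was called in 8 and Snord68 in 15 of the 20 fits without 1 library. Snord60, the member tied to cholesterol trafficking, had 0.54 ± 0.22 in macrophages and -0.50 ± 0.21 in dendritic cells, neither past the threshold (adjusted p = 0.31 and 0.43, edgeR). None of the 4 Rpl13a snoRNAs was called with lipoproteins in macrophages, where their median was 0.25. The lipoprotein effect differed between cell types for 0 members (edgeR; 16 at unadjusted p under 0.05, 0 by DESeq2), where 1.05% of features differed (0.825% higher and 0.225% lower in macrophages).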

How the data were processed

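Small RNA was sequenced from total RNA extracted with Trizol, with TruSeq libraries, per the labels' protocols. The authors deposited 20 files of distinct sequences of 18 to 45 nt with raw read counts. Per the submitters' processing notes, the authors used CASAVA 1.8.2, whose role is not stated. The aligner and genome build were not given in the sources used here.

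Sequences were matched exactly, in sense, to GENCODE M21 (GRCm38) small and structural RNA transcripts, miRNA hairpins first, then Snord genes, then the others. A sequence in several genes of a class was divided equally, and sums were rounded. RefSeq hairpins were searched too. Library size was all reads of the file. edgeR 4.0.16 (R 4.3.3, robust quasi-likelihood F test) fitted 1334 features with at least 50 reads, with the 4 cultures (cell type by genotype) and stimulus within cell type as terms (8 residual degrees of freedom) and Benjamini-Hochberg adjustment over all features. Each standard error was the absolute log2 change over the root of its F. DESeq2 1.42.0, TMM, other filters and length classes were alternatives. The share on the 5′ side was tested on its logit, (k + 0.5)/(n + 1), over 647 features with at least 500 reads. The edgeR and sign-flip steps were tested on simulated data.

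Depth was 10254997 to 22796027 reads per library, so that 3 counts are 0.132 to 0.293 RPM (reads per 1000000 reads of the file). Named genes are the 12 members with the most reads, up to 10 called members each way per comparison among those with at least 500 reads, up to 8 called members per end comparison, and the members of the Rpl13a, processing, U6 and cholesterol lists with at least 500 reads. Snord50a, Snord50b, Snord78 and the members near the threshold or without called change were named in addition after their values were seen. Some host gene annotations are not reported here. The members and lists were chosen with earlier results of these data known.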

Additional observations from a re-analysis of the deposited data

Results flagged for a closer look

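Snord42a was the only member whose genotype effect differed between cell types by a test of the difference itself: 0.48 on the log2 scale (0.477), from 0.64 in macrophages against 0.16 in dendritic cells. The adjusted p of 0.049 (edgeR) was lost in every fit without 1 library, where the difference ranged from 0.43 to 0.52. As a share of C/D reads the difference was 0.18, not called.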

How the results depend on the processing

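The labels give no replicate numbers to use as a block. Pairs of libraries were matched on genotype and stimulus between cell types, and on cell type and stimulus between genotypes. Matching to the genome was not run, as no genome sequence was used here; counting only sequences found in no GENCODE transcript outside the Snord locus was added after seeing the data. It kept the number of calls within 1.5 times in every comparison (31 between cell types, 7 for LPS in dendritic cells). The number of called members otherwise moved as follows. Macrophages against dendritic cells (31): 20 with 27 to 45 nt only, 26 to 34 without 1 library. Knockout in macrophages (5): 0 with 27 to 45 nt, 3 with either TMM, 0 as a share of C/D reads, 3 to 11 without 1 library. LPS in dendritic cells (9): 0 with 27 to 45 nt, 4 with DESeq2, 2 and 1 with TMM over all features and over miRNA hairpins, 1 without a filter, 14 in separate fits, 0 as a share, 0 to 13 without 1 library. Lipoproteins in macrophages (2): 0 with 18 to 26 nt, 27 to 45 nt, TMM over all features, no filter, separate fits or a share, 0 to 2 without 1 library. Genotype difference (1): 2 with 18 to 26 nt, 0 with 27 to 45 nt, DESeq2, either TMM, no filter or a share, 0 to 2 without 1 library. LPS difference (0): 1 with 18 to 26 nt, 0 to 6 without 1 library. Lipoprotein difference (0): 2 with at least 500 reads, 1 with sequences of 1 Snord gene, 0 to 2 without 1 library. LPS in macrophages (0) gave 0 to 5 without 1 library. The genotype in dendritic cells and lipoproteins in dendritic cells gave 0 throughout. With 27 to 45 nt only, the change turned for Snord22 (0.68), Snord33 (0.11), Snord45c (0.36) and Snord60 (0.66) with LPS in dendritic cells and for Snord96a between cell types (0.14). The turned LPS values were not called. The 5′ share differed between cell types by 2.95 points (2.44 to 3.83 without 1 library) and by 11.8 without Snord93; the 3′ share by -3.50 (-4.33 to -2.97) and by -12.3. The summed ratio of 1.24 lay between 1.18 and 1.29 without 1 library. End calls between cell types (20) lay between 17 and 24 without 1 pair, and 0 between genotypes. The cause of these differences was not tested. Of 28 named member and comparison combinations, 14 stayed called in every fit without 1 library. Genes under 500 reads and the single library per condition limit precision.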
